A study of Rattus norvegicus with 12 samples.

Results

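The 43 genes described here carry out DNA replication and the S phase of the cell cycle. They were found by symbol in the deposited table of normalized counts, which lists 14275 genes, and all 43 were present with 1 row each. All of them were among the 14601 genes tested, with at least 133 counts in every library. They were sorted by role into 7 classes: origin licensing (5 genes), the MCM helicase (6), helicase activation (8), polymerases and primase (8), the sliding clamp with its loader, single-strand binding and Okazaki fragment joining (9), nucleotide synthesis (4), and chromatin assembly and repair (3).

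A dividing cell licenses its replication origins in G1: the origin recognition complex, Cdc6 and Cdt1 load rings of Mcm2 to Mcm7 onto DNA. At the start of S phase the kinase Cdc7 with Dbf4, together with Mcm10, Cdc45 and the GINS complex, turns these rings into active helicases, and polymerases copy both strands behind them. Many of the genes are transcribed under E2F factors, which the retinoblastoma family holds back with the help of histone deacetylases in resting cells, so the group is a widely used readout of proliferation.

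RNA was measured in NRK-49F, a fibroblast line of normal rat kidney, by sequencing of polyadenylated transcripts. Cells had received an empty vector (pcDNA3.1) or a plasmid for human HDAC1 with a Flag tag, and then spent 24 hours in medium with 0.5% serum, either without addition (vehicle) or with 2 ng/ml TGFB1, a cytokine that drives kidney fibroblasts towards matrix production. HDAC1 is a histone deacetylase. The titles give 4 groups of 3 libraries, which cross the plasmid (empty vector or HDAC1) with the addition (vehicle or TGFB1). All groups share the line, the transfection and the low serum, and the labels say neither whether the transfected cells were a pool or a clone nor whether replicates were separate cultures, so p-values measure the spread between libraries.

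Library totals ran from 18397093 to 36652084 counts. Hdac1 and its named copy Hdac1l, between which reads of the human plasmid may be divided, summed to 212 to 222 CPM (counts scaled to the library total, as edgeR gives them) with the empty vector and 1227 to 1827 CPM with HDAC1 in vehicle. With TGFB1 they summed to 259 to 302 CPM and 1218 to 1730 CPM. Of 8 fibroblast markers, 6 were tested, led by Col1a1, Col1a2 and Vim, while Dcn lay below 1 CPM and Thy1 and Lum were not among the genes tested. Their sum was 10244 to 11844 CPM with the empty vector and 8002 to 9441 CPM with HDAC1 in vehicle, and 13329 to 16299 and 11175 to 13350 CPM with TGFB1. In vehicle, every HDAC1 library was below every empty vector library for Col1a1, Col1a2 and Pdgfrb, while Col3a1 and Dcn overlapped. Vim was higher, at 3028 to 3345 CPM with HDAC1 against 2651 to 2743 CPM with the empty vector. Of 6 epithelial markers only Krt8 and Pax8 were tested, and Krt8 was abundant in every group: their sum was 1144 to 1247 CPM with the empty vector and 1436 to 1688 CPM with HDAC1 in vehicle, and 1357 to 1535 and 1685 to 1759 CPM with TGFB1. The 3 tested of 5 endothelial markers summed to 2.03 to 3.89 CPM and the 2 tested of 5 immune markers, mostly Cd68, to 9.28 to 10.6, 5.42 to 8.29, 3.57 to 5.01 and 2.43 to 3.53 CPM in the same group order. The part of these marker shifts in the results was not tested. Transcripts of heart muscle set some libraries apart: the 12 heart genes, all tested, gave 56.3 CPM in 1 library (empty vector vehicle replicate 1) and 325 and 346 CPM in the other two of its group. They gave 198 to 386 CPM for HDAC1 with vehicle, 369 to 466 CPM for TGFB1 with the empty vector and 122 to 138 CPM for TGFB1 with HDAC1. The 7 tested of 8 brain genes gave 11.8 CPM in that same library, and over the groups to 11.8 to 62.3, 42.6 to 74.1, 73.6 to 74.8 and 25.1 to 27.2 CPM in the same order. Results are therefore also given without that library and with the summed heart and brain level as a covariate. Among the compared pairs of groups, the heart and brain sums overlapped only for HDAC1 against the empty vector in vehicle. In the other pairs the covariate and the compared factor cannot be fully told apart.

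The 43 genes formed a staircase over the 4 groups. Their summed level averaged 3009 ± 185 CPM (SD, n = 3) in empty vector vehicle cells, 3983 ± 150 CPM with HDAC1 in vehicle, 4601 ± 139 CPM with the empty vector and TGFB1, and 4963 ± 86.3 CPM with HDAC1 and TGFB1. No library of a lower step reached a library of the next: the sums ran from 2820 to 3190, 3826 to 4124, 4472 to 4748 and 4913 to 5063 CPM. The mean of the empty vector vehicle group was the lowest for 43 of 43 genes, and that of HDAC1 with TGFB1 was the highest for 39. The order of the sums held for 33 genes. In 6 genes (Pola1, Pole, Pole2, Rpa1, Tyms and Brca1) HDAC1 alone had a higher mean than TGFB1 alone, and in 4 (Gmnn, Gins2, Prim2 and Rfc3) TGFB1 alone had a higher mean than HDAC1 with TGFB1. In bulk RNA, more cells in S phase and more of these transcripts per cell cannot be told apart.

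**Figure D1:**
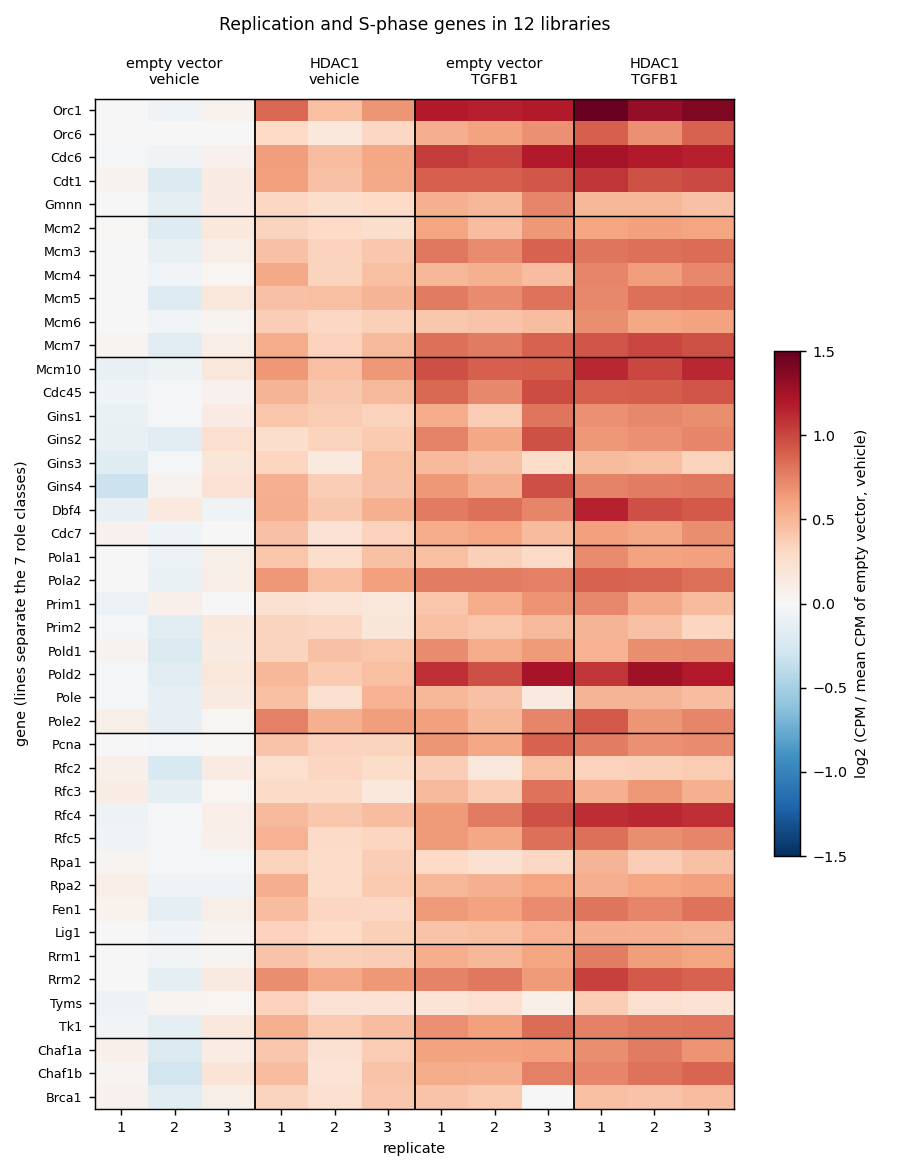
Level of each of the 43 genes (rows, by role class) in each of the 12 libraries (columns, by group and replicate), as the log2 ratio of its CPM to the mean of the empty vector vehicle group. The colours deepen from left to right, and the group mean is lowest with the empty vector in vehicle for 43 of 43 genes and highest with HDAC1 and TGFB1 for 39.

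The group means of every role class followed the same steps. Origin licensing genes summed to 196 ± 13.9, 263 ± 12.6, 345 ± 19.6 and 357 ± 10.8 CPM (SD, n = 3) in the order empty vector vehicle, HDAC1 vehicle, empty vector TGFB1 and HDAC1 TGFB1, and the last 2 groups overlapped. The clamp class overlapped there as well, at 906 to 1037 CPM with the empty vector and 994 to 1032 CPM with HDAC1. MCM genes summed to 957 ± 66.1, 1246 ± 44.3, 1455 ± 48.7 and 1573 ± 9.25 CPM. Nucleotide synthesis genes summed to 576 ± 38.6, 809 ± 33.6, 881 ± 0.439 and 977 ± 41.7 CPM, and chromatin assembly and repair genes to 155 ± 17.7, 196 ± 12.1, 217 ± 9.03 and 239 ± 3.61 CPM. These sums are dominated by the abundant members, and they are shown as levels without a test.

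**Figure D2:**
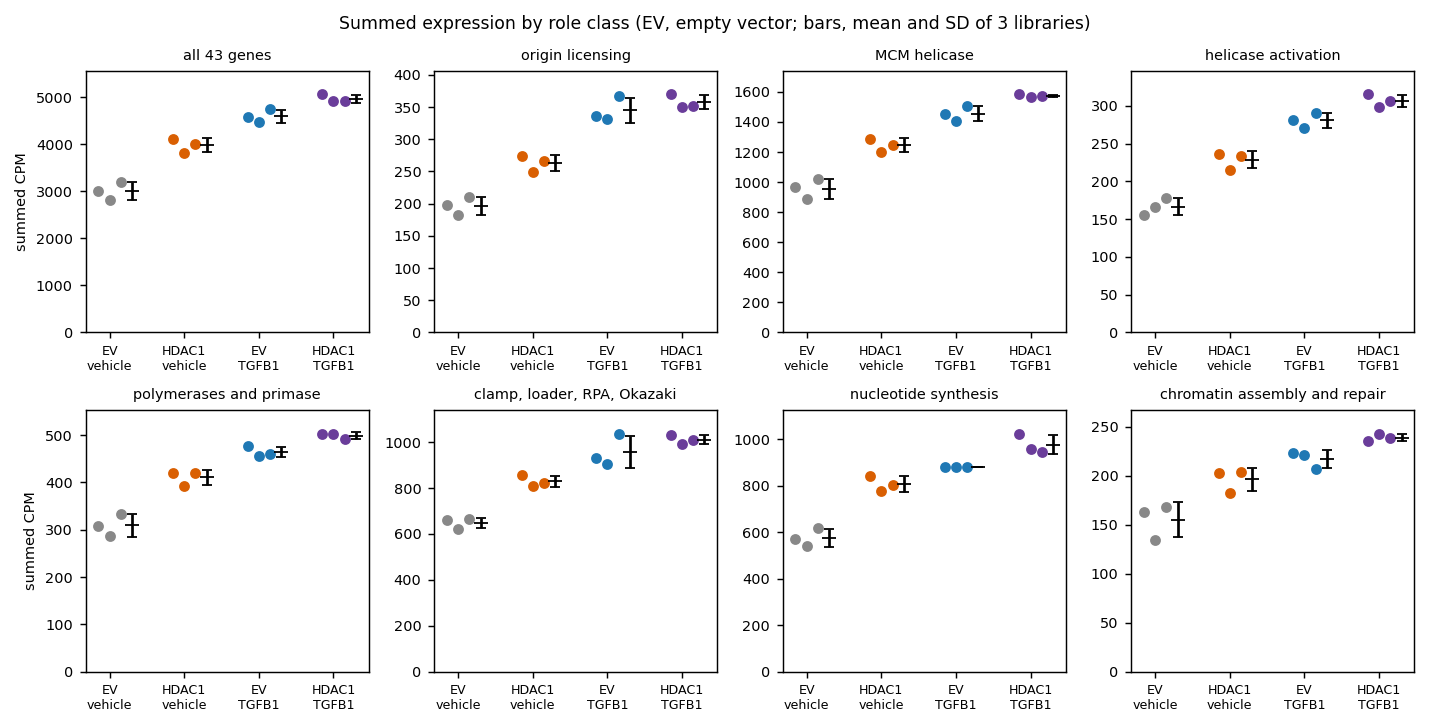
Summed CPM of all 43 genes and of each role class in each library (points), with the mean and SD of 3 libraries beside them. The empty vector vehicle group is lowest in every panel, and over all 43 genes the step between the TGFB1 groups (4601 ± 139 and 4963 ± 86.3 CPM) is the smallest.

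The genes also moved together between replicates. Within the empty vector vehicle group, replicate 3 was the highest library for 34 of the 43 genes and replicate 2 the lowest for 31. Within HDAC1 vehicle, replicate 1 was highest for 31 and replicate 2 lowest for 32, and within the empty vector TGFB1 group, replicate 3 was highest for 31 and replicate 2 lowest for 25. For HDAC1 with TGFB1 the highest library was spread over the replicates (21, 8 and 14 genes). The same order was not counted over all genes, so these counts do not show a trait of this group alone. The 43 genes are therefore not 43 independent readings of a treatment. The median deviation of a library from its group mean was at most 0.10 on the log2 scale.

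The sequences before the starts of these genes were searched for E2F sites as a description. Any part of such sites in the shared movement of the genes was not tested. Promoters from RefSeq (build GRCr8) matched 38 of the 43 genes by symbol; Orc1, Cdc6, Mcm4, Gins4 and Rrm2 had no entry. Within the 250 bases before the start, the E2F consensus (TTTCCCGC, TTTCGCGC, TTTGCCGC or TTTGGCGC, either strand) was present in 8 of 38 (21.1%), against 580 of 33469 promoters in the whole table (1.73%) and 373 of 11489 promoters of genes in the normalized table (3.25%). The shorter core, which drops the first T and so contains every match of the consensus, was present in 15 of 38 (39.5%), against 7.59% and 13.2%. The CCAAT box was present in 57.9% of the members, 34% of all promoters and 35.4% of those in the normalized table. The GC box (GGGCGG) was present in 60.5%, 30.5% and 55.9%, and TTTGAA, the cell cycle homology region of mitotic genes, in 10.5%, 16.2% and 10.8%. A match is a run of letters and not a bound site. The 8 genes with the consensus were Mcm2, Mcm5, Mcm6, Mcm7, Gins1, Gins3, Pola1 and Tyms, so 4 of the 5 MCM ring genes with an entry held it.

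The 6 promoters of these genes whose levels are given in full below are printed to show where the consensus lies. Each runs 5′ to 3′ on the minus strand of GRCr8 and ends at the base before the annotated start, with every E2F match in capitals. Positions of a match's first base are counted back from the start. Mcm2 (chr4:122918095-122918344) and Mcm6 (chr13:42404353-42404602) each hold a pair of matches on opposite strands that overlap into 1 run of 12 bases, from position -14 in Mcm2 and from position -139 in Mcm6. Mcm7 (chr12:22163179-22163428) holds separate matches at -233 and -52. Gins3 (chr19:9434680-9434929) holds 1 at -36, Pola1 (chrX:62342356-62342605) 1 at -172 and Tyms (chr9:120776084-120776333) 1 at -37.
Mcm2: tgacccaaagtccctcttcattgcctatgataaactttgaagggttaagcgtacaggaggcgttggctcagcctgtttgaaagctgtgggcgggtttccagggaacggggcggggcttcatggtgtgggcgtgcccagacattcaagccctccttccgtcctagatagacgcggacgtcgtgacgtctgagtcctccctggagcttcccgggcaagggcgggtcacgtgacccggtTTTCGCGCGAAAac
Mcm6: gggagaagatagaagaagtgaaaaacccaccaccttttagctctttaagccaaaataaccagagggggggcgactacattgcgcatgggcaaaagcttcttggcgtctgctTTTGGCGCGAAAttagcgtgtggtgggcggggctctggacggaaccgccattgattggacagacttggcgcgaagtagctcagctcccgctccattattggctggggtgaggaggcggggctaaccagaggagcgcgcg
Mcm7: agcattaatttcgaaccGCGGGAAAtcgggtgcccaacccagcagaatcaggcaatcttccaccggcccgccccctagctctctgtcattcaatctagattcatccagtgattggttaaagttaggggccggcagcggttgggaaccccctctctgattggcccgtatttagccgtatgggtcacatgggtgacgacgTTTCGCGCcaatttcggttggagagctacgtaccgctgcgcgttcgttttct
Gins3: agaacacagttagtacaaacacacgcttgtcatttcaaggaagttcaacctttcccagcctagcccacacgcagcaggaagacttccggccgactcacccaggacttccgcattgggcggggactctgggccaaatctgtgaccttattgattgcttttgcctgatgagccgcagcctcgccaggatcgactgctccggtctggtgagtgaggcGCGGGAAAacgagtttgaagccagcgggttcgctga
Pola1: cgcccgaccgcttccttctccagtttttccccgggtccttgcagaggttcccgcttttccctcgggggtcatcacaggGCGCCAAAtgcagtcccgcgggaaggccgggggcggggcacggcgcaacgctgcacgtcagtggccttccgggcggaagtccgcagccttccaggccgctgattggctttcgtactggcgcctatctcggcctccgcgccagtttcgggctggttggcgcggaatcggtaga
Tyms: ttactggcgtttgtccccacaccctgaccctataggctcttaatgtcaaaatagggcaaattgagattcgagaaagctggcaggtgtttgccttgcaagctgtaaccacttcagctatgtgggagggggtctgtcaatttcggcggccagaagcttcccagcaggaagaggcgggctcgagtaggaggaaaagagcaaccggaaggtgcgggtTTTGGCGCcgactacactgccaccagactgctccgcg

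Whether HDAC1 alone altered these genes was asked first. Without added cytokine, 39 of the 43 genes rose with the HDAC1 plasmid and 0 fell at an edgeR adjusted p under 0.05, where 6.64% of all 14601 genes rose and 7.32% fell. All 43 had log2 fold changes above 0, from 0.20 to 0.67 with a median of 0.38, against a median of -0.01 over all genes. In 42 genes every HDAC1 library exceeded every empty vector library, as in 15.2% of all genes. The genes not called were Gins2 (0.32), Gins3 (0.31), Prim1 (0.20) and Rfc3 (0.24), with edgeR adjusted p from 0.0558 to 0.113. Leaving out empty vector vehicle replicate 1, the library low in heart and brain transcripts, 34 genes rose, and with the heart and brain covariate 36 rose, without Orc6 (0.27), Gins4 (0.36) and Prim2 (0.27). The Orc6 call also ended with no filter on low counts (0.26). The calls that ended when 1 library was left out were those of Orc6, Gins4, Prim2, Rfc2, Tyms, Chaf1b and Brca1, each given with its class.

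Origin licensing genes had the highest class median (0.54), and 5 of 5 rose. Orc1 was at 13.3, 12.9 and 13.8 CPM in the empty vector vehicle libraries and at 24.2, 18.2 and 21.1 CPM in the HDAC1 vehicle libraries. Under TGFB1, Orc1 was at 30.5, 29.9 and 30.5 CPM with the empty vector and at 37.4, 33.3 and 34.8 CPM with HDAC1. This gene, for the large subunit of the origin recognition complex, had the largest HDAC1 effect of the 43 in vehicle (0.67 ± 0.10 SE, edgeR adjusted p = 8.58e-05), with no overlap between those groups. Cdc6 was at 40.8, 40.0 and 43.4 CPM in the empty vector vehicle libraries and at 64.0, 56.9 and 61.9 CPM in the HDAC1 vehicle libraries. Under TGFB1, Cdc6 was at 85.6, 82.8 and 94.3 CPM with the empty vector and at 98.7, 94.1 and 92.6 CPM with HDAC1. Cdc6, the loader that recruits the helicase to the origin complex, rose by 0.56 ± 0.07 SE (log2, edgeR adjusted p = 2.67e-05), and its 3 HDAC1 libraries were all above 56 CPM while no empty vector library exceeded 43.4 CPM. Cdt1 was at 38.1, 31.9 and 39.9 CPM in the empty vector vehicle libraries and at 56.0, 49.7 and 54.4 CPM in the HDAC1 vehicle libraries. Under TGFB1, Cdt1 was at 68.4, 68.5 and 69.8 CPM with the empty vector and at 77.1, 70.8 and 72.9 CPM with HDAC1. Cdt1, which delivers the helicase rings, rose by 0.54 ± 0.08 SE (log2, edgeR adjusted p = 9.73e-05). Gmnn was at 85.3, 77.6 and 93.0 CPM in the empty vector vehicle libraries and at 106, 103 and 105 CPM in the HDAC1 vehicle libraries. Under TGFB1, Gmnn was at 123, 121 and 142 CPM with the empty vector and at 120.1, 121 and 116 CPM with HDAC1. Geminin, the protein that blocks Cdt1 after origins have fired, thus rose as well in vehicle (0.29 ± 0.07 SE, edgeR adjusted p = 0.00824), by a smaller log2 change than its target. Orc6 was at 19.5, 19.5 and 19.4 CPM in the empty vector vehicle libraries and at 23.9, 21.8 and 24.2 CPM in the HDAC1 vehicle libraries. Under TGFB1, Orc6 was at 28.3, 29.5 and 31.3 CPM with the empty vector and at 36.4, 31.2 and 35.9 CPM with HDAC1. Orc6, the smallest origin subunit, had the weakest evidence of the class (0.26 ± 0.08 SE, edgeR adjusted p = 0.0367); its groups did not overlap, but the call ended without any of the empty vector vehicle replicates (0.26, 0.28 and 0.28) and without HDAC1 vehicle replicate 1 (0.26) or 3 (0.25).

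The 6 subunits of the MCM ring, the motor of the replicative helicase, all rose with HDAC1 in vehicle, within a narrow range of log2 fold changes (0.30 to 0.46). Mcm4 was at 129, 125 and 131 CPM in the empty vector vehicle libraries and at 191, 161 and 176 CPM in the HDAC1 vehicle libraries. Under TGFB1, Mcm4 was at 182, 185 and 177 CPM with the empty vector and at 213, 198 and 212 CPM with HDAC1. Mcm4 rose by 0.46 ± 0.06 SE (log2, edgeR adjusted p = 8.05e-05). Mcm7 was at 142, 124 and 148 CPM in the empty vector vehicle libraries and at 203, 175 and 194 CPM in the HDAC1 vehicle libraries. Under TGFB1, Mcm7 was at 245, 238 and 254 CPM with the empty vector and at 265, 277 and 267 CPM with HDAC1. In Mcm7, the lowest HDAC1 vehicle library (175.1 CPM) exceeded the highest empty vector library (148 CPM), and the log2 change was 0.46 ± 0.07 SE (log2, edgeR adjusted p = 1.40e-04). Mcm6 was at 279.5, 273 and 287 CPM in the empty vector vehicle libraries and at 361, 347 and 358 CPM in the HDAC1 vehicle libraries. Under TGFB1, Mcm6 was at 369.6, 375 and 386 CPM with the empty vector and at 452, 419 and 426 CPM with HDAC1. Mcm6, whose libraries lay close together within each group, rose by 0.35 ± 0.06 SE (log2, edgeR adjusted p = 3.44e-04). Mcm2 was at 240.2, 209 and 265 CPM in the empty vector vehicle libraries and at 301, 292 and 287 CPM in the HDAC1 vehicle libraries. Under TGFB1, Mcm2 was at 358, 327 and 372 CPM with the empty vector and at 357, 366 and 358 CPM with HDAC1. Mcm2 had the largest adjusted p of the class (0.30 ± 0.07 SE, edgeR adjusted p = 0.0084), with the empty vector replicates spread from 209 to 265 CPM. Mcm3 and Mcm5 rose by 0.39 and 0.46.

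Among the 8 genes of helicase activation, 6 rose with HDAC1 in vehicle. Mcm10 was at 32.3, 33.0 and 39.1 CPM in the empty vector vehicle libraries and at 54.7, 47.4 and 54.8 CPM in the HDAC1 vehicle libraries. Under TGFB1, Mcm10 was at 68.1, 65.0 and 65.2 CPM with the empty vector and at 76.2, 69.5 and 76.3 CPM with HDAC1. Mcm10, a scaffold that helps to open the helicase, rose by 0.58 ± 0.08 SE (log2, edgeR adjusted p = 6.33e-05). Dbf4 was at 37.6, 45.0 and 39.3 CPM in the empty vector vehicle libraries and at 59.4, 53.7 and 58.7 CPM in the HDAC1 vehicle libraries. Under TGFB1, Dbf4 was at 69.6, 72.1 and 67.7 CPM with the empty vector and at 90.3, 79.3 and 77.2 CPM with HDAC1. Dbf4, the activating subunit of the Cdc7 kinase, rose by 0.50 ± 0.08 SE (log2, edgeR adjusted p = 1.93e-04), and Cdc7 itself by 0.34. Gins3 was at 6.36, 7.05 and 8.19 CPM in the empty vector vehicle libraries and at 9.03, 7.94 and 9.86 CPM in the HDAC1 vehicle libraries. Under TGFB1, Gins3 was at 10.1, 9.80 and 8.73 CPM with the empty vector and at 9.99, 9.81 and 9.18 CPM with HDAC1. For Gins3, a subunit of the GINS complex, HDAC1 replicate 2 lay below empty vector replicate 3, and the change was not called (0.31 ± 0.12 SE, edgeR adjusted p = 0.1). The other GINS genes had log2 fold changes of 0.38 (Gins1), 0.32 (Gins2, not called) and 0.45 (Gins4), and Cdc45, their partner in the moving helicase, rose by 0.46. The Gins4 call ended without replicate 1 of either vehicle group (0.31 for the empty vector and 0.42 for HDAC1).

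Of the 8 polymerase and primase genes, 7 rose. Pola2 was at 43.6, 41.0 and 46.9 CPM in the empty vector vehicle libraries and at 69.1, 60.1 and 66.9 CPM in the HDAC1 vehicle libraries. Under TGFB1, Pola2 was at 74.7, 74.7 and 74.2 CPM with the empty vector and at 81.2, 80.3 and 77.9 CPM with HDAC1. Pola2, the regulatory subunit of the polymerase alpha complex that starts each new strand, rose by 0.57 ± 0.07 SE (log2, edgeR adjusted p = 1.84e-05). Pole2 was at 11.5, 10.0 and 11.1 CPM in the empty vector vehicle libraries and at 18.3, 15.7 and 16.8 CPM in the HDAC1 vehicle libraries. Under TGFB1, Pole2 was at 16.7, 15.4 and 18.1 CPM with the empty vector and at 20.5, 17.3 and 18.1 CPM with HDAC1. Pole2, a subunit of the leading strand polymerase epsilon, rose by 0.64 ± 0.10 SE (log2, edgeR adjusted p = 2.08e-04), which placed it beside Orc1 and Rrm2 among the largest changes. Prim1 was at 24.7, 27.8 and 26.4 CPM in the empty vector vehicle libraries and at 30.7, 30.4 and 29.6 CPM in the HDAC1 vehicle libraries. Under TGFB1, Prim1 was at 35.2, 38.8 and 41.9 CPM with the empty vector and at 43.5, 39.1 and 36.6 CPM with HDAC1. Prim1, the catalytic subunit of primase, had groups that did not overlap in vehicle but a small change that was not called (0.20 ± 0.08 SE, edgeR adjusted p = 0.113). Pola1 was at 62.6, 59.2 and 66.5 CPM in the empty vector vehicle libraries and at 84.0, 75.1 and 84.8 CPM in the HDAC1 vehicle libraries. Under TGFB1, Pola1 was at 85.7, 80.5 and 76.8 CPM with the empty vector and at 103, 94.99 and 96.2 CPM with HDAC1. Pola1, the catalytic subunit of polymerase alpha, rose by 0.37 ± 0.07 SE (log2, edgeR adjusted p = 9.61e-04), and its HDAC1 libraries exceeded its empty vector libraries in both treatments. The remaining members rose: Prim2 by 0.27, Pold1 by 0.39, Pold2 by 0.44 and Pole by 0.41. Prim2 was not called without empty vector vehicle replicate 1 (0.26) or 2 (0.22) nor without HDAC1 vehicle replicate 1 (0.25) or 2 (0.26).

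In the class of the clamp, its loader, RPA and Okazaki fragment joining, 8 of 9 genes rose. Pcna was at 203, 198 and 205 CPM in the empty vector vehicle libraries and at 271, 257 and 255 CPM in the HDAC1 vehicle libraries. Under TGFB1, Pcna was at 319, 303 and 372 CPM with the empty vector and at 344, 325 and 331 CPM with HDAC1. Pcna, the sliding clamp that tethers polymerases to DNA, rose by 0.37 ± 0.07 SE (log2, edgeR adjusted p = 9.39e-04). Lig1 was at 112, 107 and 116 CPM in the empty vector vehicle libraries and at 142, 138 and 143 CPM in the HDAC1 vehicle libraries. Under TGFB1, Lig1 was at 149.9, 152 and 161 CPM with the empty vector and at 163, 162 and 159 CPM with HDAC1. Lig1, the ligase that seals Okazaki fragments, rose by 0.34 ± 0.06 SE (log2, edgeR adjusted p = 4.21e-04). Rfc4 was at 32.0, 33.2 and 36.4 CPM in the empty vector vehicle libraries and at 47.5, 45.0 and 46.7 CPM in the HDAC1 vehicle libraries. Under TGFB1, Rfc4 was at 52.8, 58.2 and 65.4 CPM with the empty vector and at 73.2, 74.1 and 72.4 CPM with HDAC1. Rfc4, a clamp loader subunit, rose by 0.45 ± 0.08 SE (log2, edgeR adjusted p = 4.29e-04), and its HDAC1 and empty vector libraries were separate in both treatments. Rfc3 was at 25.5, 21.4 and 24.0 CPM in the empty vector vehicle libraries and at 28.9, 28.8 and 26.4 CPM in the HDAC1 vehicle libraries. Under TGFB1, Rfc3 was at 33.2, 30.7 and 41.7 CPM with the empty vector and at 34.3, 37.0 and 34.4 CPM with HDAC1. Its partner Rfc3 was not called (0.24 ± 0.10 SE, edgeR adjusted p = 0.11). Rfc2 and Rfc5 rose by 0.28 and 0.38, the single-strand binding genes Rpa1 and Rpa2 by 0.33 and 0.41, and the flap nuclease Fen1 by 0.37. The Rfc2 call ended without empty vector vehicle replicate 2 (0.20) and without each HDAC1 vehicle replicate (0.31, 0.26 and 0.30).

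All 4 nucleotide synthesis genes rose. Rrm2 was at 220.3, 199 and 241 CPM in the empty vector vehicle libraries and at 357, 325 and 345 CPM in the HDAC1 vehicle libraries. Under TGFB1, Rrm2 was at 367, 381 and 343 CPM with the empty vector and at 449, 415 and 406 CPM with HDAC1. Rrm2, the S-phase subunit of ribonucleotide reductase, had the smallest adjusted p of the 43 genes (0.64 ± 0.07 SE, edgeR adjusted p = 1.21e-05). Rrm1 was at 168, 164 and 174 CPM in the empty vector vehicle libraries and at 227, 216 and 217 CPM in the HDAC1 vehicle libraries. Under TGFB1, Rrm1 was at 245, 238 and 255 CPM with the empty vector and at 286, 261 and 253 CPM with HDAC1. Rrm1, the large subunit of the same enzyme, rose by 0.38 ± 0.06 SE (log2, edgeR adjusted p = 2.38e-04). Tyms was at 68.9, 74.4 and 74.0 CPM in the empty vector vehicle libraries and at 92.3, 83.9 and 84.0 CPM in the HDAC1 vehicle libraries. Under TGFB1, Tyms was at 83.2, 86.3 and 76.8 CPM with the empty vector and at 94.0, 85.4 and 84.4 CPM with HDAC1. Thymidylate synthase (Tyms) rose least of the class (0.26 ± 0.07 SE, edgeR adjusted p = 0.0121); its call ended without replicate 1 of either vehicle group (0.23 for the empty vector and 0.23 for HDAC1). Tk1, the thymidine kinase of dividing cells, rose by 0.46.

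The 3 genes of chromatin assembly and repair rose as well. Chaf1a was at 75.3, 61.4 and 77.3 CPM in the empty vector vehicle libraries and at 94.8, 83.8 and 92.8 CPM in the HDAC1 vehicle libraries. Under TGFB1, Chaf1a was at 108, 108 and 109 CPM with the empty vector and at 116, 122 and 114 CPM with HDAC1. Chaf1b was at 19.8, 16.0 and 22.1 CPM in the empty vector vehicle libraries and at 26.7, 22.2 and 25.9 CPM in the HDAC1 vehicle libraries. Under TGFB1, Chaf1b was at 28.4, 28.1 and 32.5 CPM with the empty vector and at 32.1, 33.9 and 35.3 CPM with HDAC1. Both encode subunits of CAF-1, which places histones on newly copied DNA; Chaf1a rose by 0.34 ± 0.08 SE (log2, edgeR adjusted p = 0.00409) and Chaf1b by 0.36 ± 0.10 SE (log2, edgeR adjusted p = 0.0218). Brca1 was at 67.6, 57.5 and 68.3 CPM in the empty vector vehicle libraries and at 81.4, 76.3 and 85.1 CPM in the HDAC1 vehicle libraries. Under TGFB1, Brca1 was at 86.7, 84.9 and 64.7 CPM with the empty vector and at 88.3, 87.0 and 88.6 CPM with HDAC1. Brca1, which acts in repair of broken DNA and protects stalled forks, rose by 0.33 ± 0.09 SE (log2, edgeR adjusted p = 0.0196). The Chaf1b call ended without empty vector vehicle replicate 1 (0.38) or 2 (0.27) and without HDAC1 vehicle replicate 1 (0.32) or 3 (0.35). The Brca1 call ended without empty vector vehicle replicate 2 (0.27) and without HDAC1 vehicle replicate 1 (0.34) or 3 (0.30).

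In the presence of TGFB1, few of the genes changed with the HDAC1 plasmid. Mcm6, Pola1 and Rfc4 rose and 0 fell, where 2.17% of all genes rose and 4.36% fell. Log2 fold changes ran from -0.11 to 0.32 with a median of 0.10, against -0.00152 over all genes, and 40 of 43 were above 0. In 15 genes every HDAC1 library exceeded every empty vector library, as in 13.3% of all genes. The log2 changes of the 3 called genes were 0.32 ± 0.07 SE (log2, edgeR adjusted p = 0.0154) for Rfc4, 0.27 ± 0.07 SE (log2, edgeR adjusted p = 0.0212) for Pola1 and 0.20 ± 0.06 SE (log2, edgeR adjusted p = 0.0425) for Mcm6. Geminin had the lowest value, and the change was not called (-0.11 ± 0.07 SE, edgeR adjusted p = 0.36). Its 3 HDAC1 libraries all lay below the empty vector libraries, but only just. The highest was at 120.6 CPM, against 120.69 CPM in the lowest empty vector library. Pcna (0.01), Mcm3 (0.02) and Rfc3 (0.00283) were close to 0, and Rrm2 was at 0.22 ± 0.07 SE (log2, edgeR adjusted p = 0.0693).

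These few calls depended on single libraries. By DESeq2 7 genes were called, and 9.18% of all genes. An unadjusted edgeR p under 0.05 was seen for 9 of the 43 (20.9%), close to the 23.0% of all genes. Leaving out HDAC1 TGFB1 replicate 1 or 3 left 0 calls, and leaving out its replicate 2 or empty vector TGFB1 replicate 1 left 1. Leaving out empty vector vehicle replicate 1 or 2 gave 6 calls and leaving out HDAC1 vehicle replicate 1 gave 5. Calls over all genes also fell, from 954 to 237 and 291 without HDAC1 TGFB1 replicate 1 or 3. With the heart and brain covariate 0 of the 43 and 101 of all genes were called, with log2 fold changes of 0.39 for Rfc4, 0.26 for Pola1 and 0.19 for Mcm6. The heart sum separated these groups, at 369 to 466 CPM with the empty vector and 122 to 138 CPM with HDAC1. Covariate and plasmid therefore cannot be fully told apart in this comparison.

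**Figure D3:**
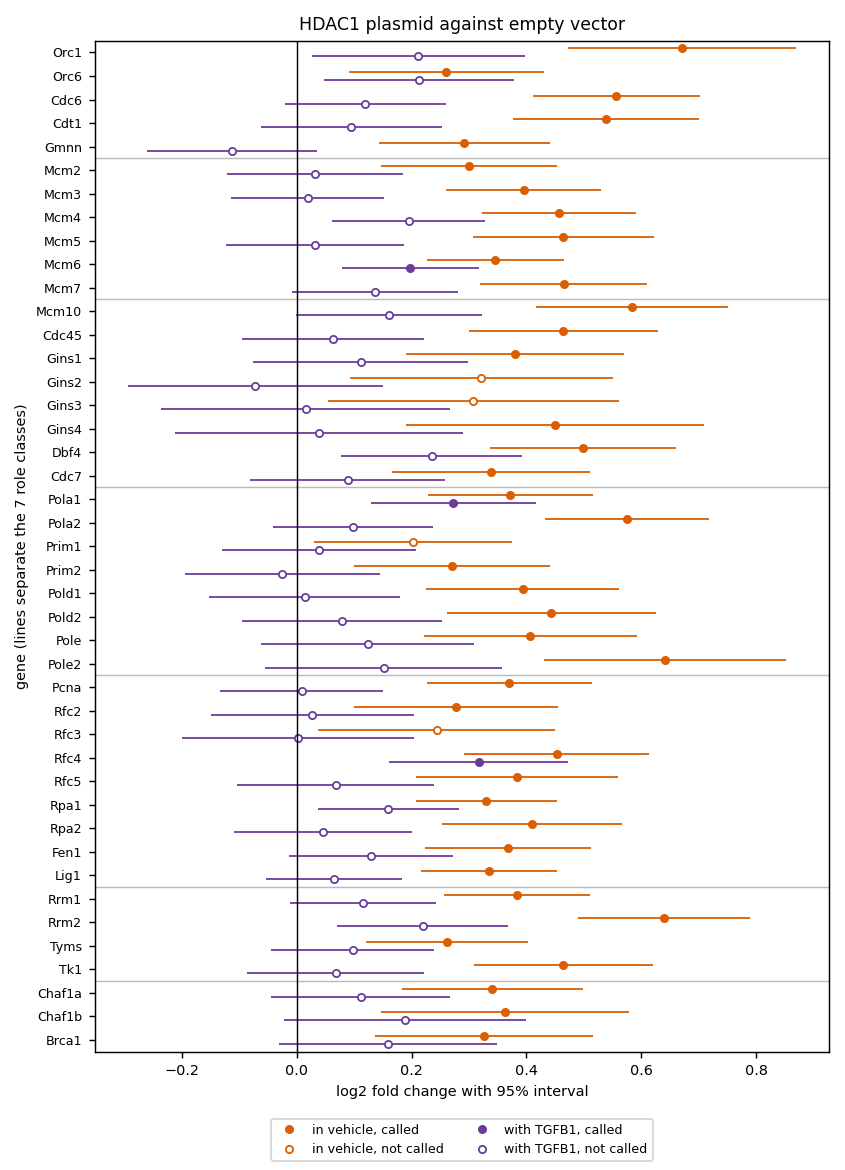
Log2 fold change of HDAC1 against the empty vector for each gene, in vehicle (orange) and with TGFB1 (purple), with 95% intervals from the edgeR fit; filled points were called. In vehicle 39 of 43 points are filled and all lie above 0, while with TGFB1 3 are filled and most intervals include 0.

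The difference between the HDAC1 effects was tested as an interaction. The estimated HDAC1 effect was lower with TGFB1 than in vehicle for 43 of 43 genes, whereas 48.7% of all genes had an interaction below 0. The log2 differences ran from -0.49 to -0.05 with a median of -0.29, against 0.01 over all genes. Cdc6 (-0.44 ± 0.10 SE, edgeR adjusted p = 0.0418) and Pola2 (-0.48 ± 0.10 SE, edgeR adjusted p = 0.029) passed the test, where 0.342% of all genes did so in this direction, and 31 genes (72.1%) had an unadjusted p under 0.05, against 12.9% of all genes. Since the genes moved together between replicates, these counts are not independent readings of the difference. For Cdc6 the HDAC1 effect was 0.56 in vehicle and 0.12 with TGFB1, and for Pola2 it was 0.57 and 0.10. Next came Mcm3, Rrm2, Cdt1 and Mcm5, with edgeR adjusted p from 0.0623 to 0.0655. Orc6 had the smallest difference (-0.05).

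How many genes passed this test varied with the libraries in the fit, while the median did not change sign. DESeq2 called 11, and 1.88% of all genes. Leaving out empty vector vehicle replicate 3 gave 10 calls and leaving out empty vector TGFB1 replicate 2 gave 4. There were 0 calls without replicate 1 or 2 of the vehicle libraries with the empty vector, replicate 1 or 3 of those with HDAC1, empty vector TGFB1 replicate 1 or any of the HDAC1 TGFB1 replicates, and 0 with the heart and brain covariate. Over all genes the 70 calls became 5, 26 and 3 without HDAC1 TGFB1 replicate 1, 2 or 3 and 0 with the covariate. Here too the covariate and the plasmid cannot be fully told apart within TGFB1. The median ranged from -0.36 to -0.26 over all alternatives.

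**Figure D4:**
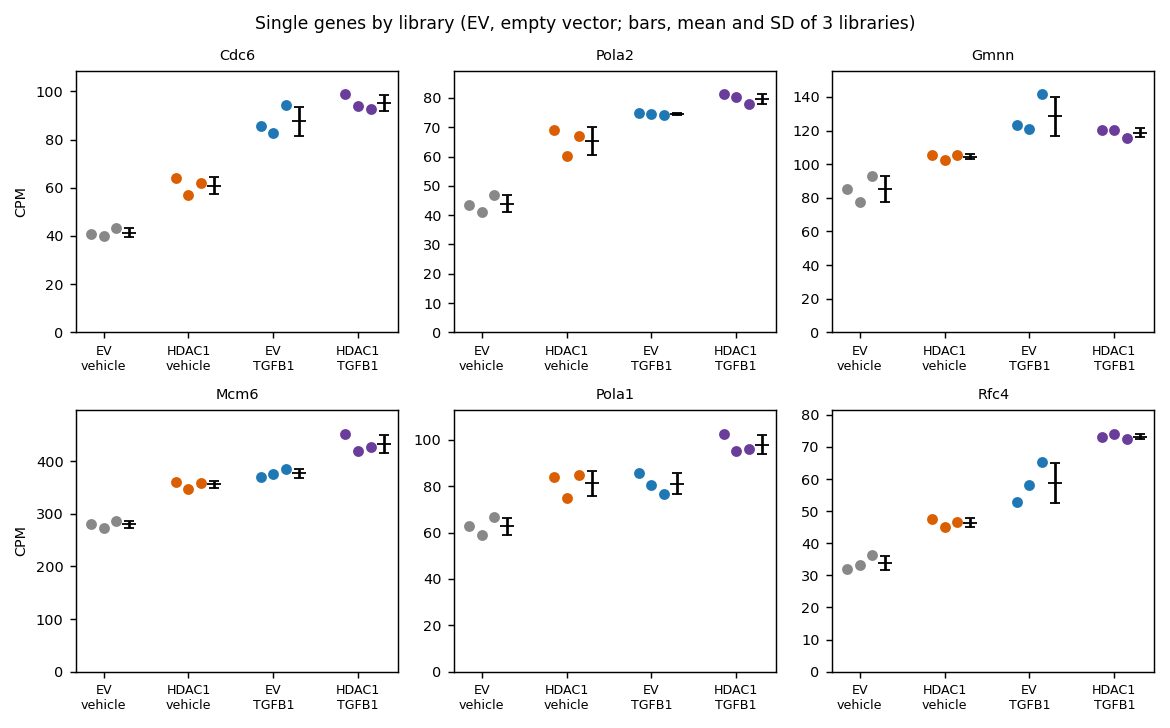
CPM of 6 genes in every library (points) with the mean and SD of 3 libraries beside them. Cdc6 and Pola2 passed the test of the interaction, Gmnn had the lowest HDAC1 effect with TGFB1, and Mcm6, Pola1 and Rfc4 were called for HDAC1 with TGFB1.

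TGFB1 itself raised the whole group. With the empty vector, 43 of 43 genes rose and 0 fell, where 25.9% of all genes rose and 25.0% fell. Log2 fold changes ran from 0.18 to 1.18 with a median of 0.61, against 0.01 over all genes. In 42 genes all 3 TGFB1 libraries lay above all 3 vehicle libraries, as in 28.6% of all genes. This comparison and the HDAC1 effect in vehicle are both measured against the same 3 empty vector vehicle libraries, so their values are not independent. Origin licensing genes had the highest class median (0.91), followed by helicase activation (0.74) and the MCM ring (0.66). The largest rises were those of Orc1 (1.18 ± 0.10 SE, edgeR adjusted p = 1.82e-09) and Pold2, the second subunit of the lagging strand polymerase delta (1.09 ± 0.09 SE, edgeR adjusted p = 1.53e-09). Pold2 was at 26.3, 24.1 and 30.1 CPM in the empty vector vehicle libraries and at 37.8, 35.4 and 36.6 CPM in the HDAC1 vehicle libraries. Under TGFB1, Pold2 was at 57.4, 52.3 and 63.0 CPM with the empty vector and at 56.6, 64.5 and 60.9 CPM with HDAC1. The separation was wide for Pold2: its lowest TGFB1 library (52.3 CPM) was well above its highest vehicle library with the empty vector (30.1 CPM). Cdc6 rose by 1.08, Mcm10 by 0.92, Cdt1 by 0.91, Mcm7 by 0.83 and Pcna by 0.71. The smallest changes were those of Tyms (0.18 ± 0.07 SE, edgeR adjusted p = 0.0317), Rpa1 (0.28) and Brca1 (0.29). Brca1 was the gene whose groups overlapped, because replicate 3 with TGFB1 (64.7 CPM) lay below vehicle replicates 1 and 3. With the heart and brain covariate 41 genes were called, without Gins3 (0.31) and Tyms (0.17), and without empty vector vehicle replicate 1 also 41. The Tyms call ended with no filter on low counts (0.17) and in the fit to the compared groups alone (0.17) as well. Leaving out single libraries ended the calls of Tyms, Gins3 and Brca1. Tyms was at 0.13 without empty vector vehicle replicate 1, at 0.15 and 0.14 without empty vector TGFB1 replicate 1 or 2, and at 0.16 without HDAC1 vehicle replicate 2 or any HDAC1 TGFB1 replicate. Gins3 was at 0.30 without empty vector vehicle replicate 1 and 0.34 without empty vector TGFB1 replicate 1. Brca1 was at 0.22 without empty vector vehicle replicate 2, and at 0.19 and 0.23 without empty vector TGFB1 replicate 1 or 2.

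In cells with the HDAC1 plasmid fewer genes were called for TGFB1, and the fold change was lower than with the empty vector for 43 of 43, a difference that passed the test for Cdc6 and Pola2. Here 34 of 43 genes rose and 0 fell, where 24.9% of all genes rose and 24.2% fell. Log2 fold changes ran from 0.02 to 0.73 with a median of 0.32, against -0.02 over all genes, and 37 genes had all 3 TGFB1 libraries above all 3 vehicle libraries, as in 30.0% of all genes. Pold2 (0.73 ± 0.08 SE, edgeR adjusted p = 4.16e-07) and Orc1 (0.72 ± 0.09 SE, edgeR adjusted p = 1.06e-06) had the largest changes, followed by Rfc4 (0.66) and Cdc6 (0.64). The smallest called rise was that of Gmnn (0.18 ± 0.07 SE, edgeR adjusted p = 0.0373). All 5 origin licensing genes and all 6 MCM genes rose, as did 7 of 8 genes of helicase activation, 5 of 8 polymerase and primase genes, 6 of 9 genes of the clamp class, 3 of 4 of nucleotide synthesis and 2 of 3 of chromatin assembly and repair. The 9 genes not called were Gins3, Prim2, Pole, Pole2, Rfc2, Rpa1, Rpa2, Tyms and Brca1, with values from 0.02 (Tyms) to 0.17 (Rpa2). The test of the difference between the TGFB1 effects is the interaction above, since the difference of differences is the same. With the covariate 30 genes were called, without Gmnn (0.19), Cdc7 (0.23), Pold1 (0.24) and Rfc3 (0.27), and without empty vector vehicle replicate 1 35 were. The Gmnn call also ended with no filter on low counts (0.18), and those of Gmnn (0.16) and Gins4 (0.29) with only genes averaging at least 1 CPM. Leaving out HDAC1 vehicle replicate 2 ended the calls of Gmnn (0.14), Mcm4 (0.15), Gins4 (0.25), Cdc7 (0.21) and Lig1 (0.15). Leaving out HDAC1 TGFB1 replicate 1 ended those of Gmnn, Gins4 and Lig1, replicate 2 those of Gmnn, Gins4, Lig1, Pold1 and Rfc3, and replicate 3 those of Gmnn, Gins2, Gins4 and Pold1. The Gmnn call also ended without HDAC1 vehicle replicate 1 or 3 or empty vector TGFB1 replicate 1, and the Gins4 call without HDAC1 vehicle replicate 3 or empty vector TGFB1 replicate 1.

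**Figure D5:**
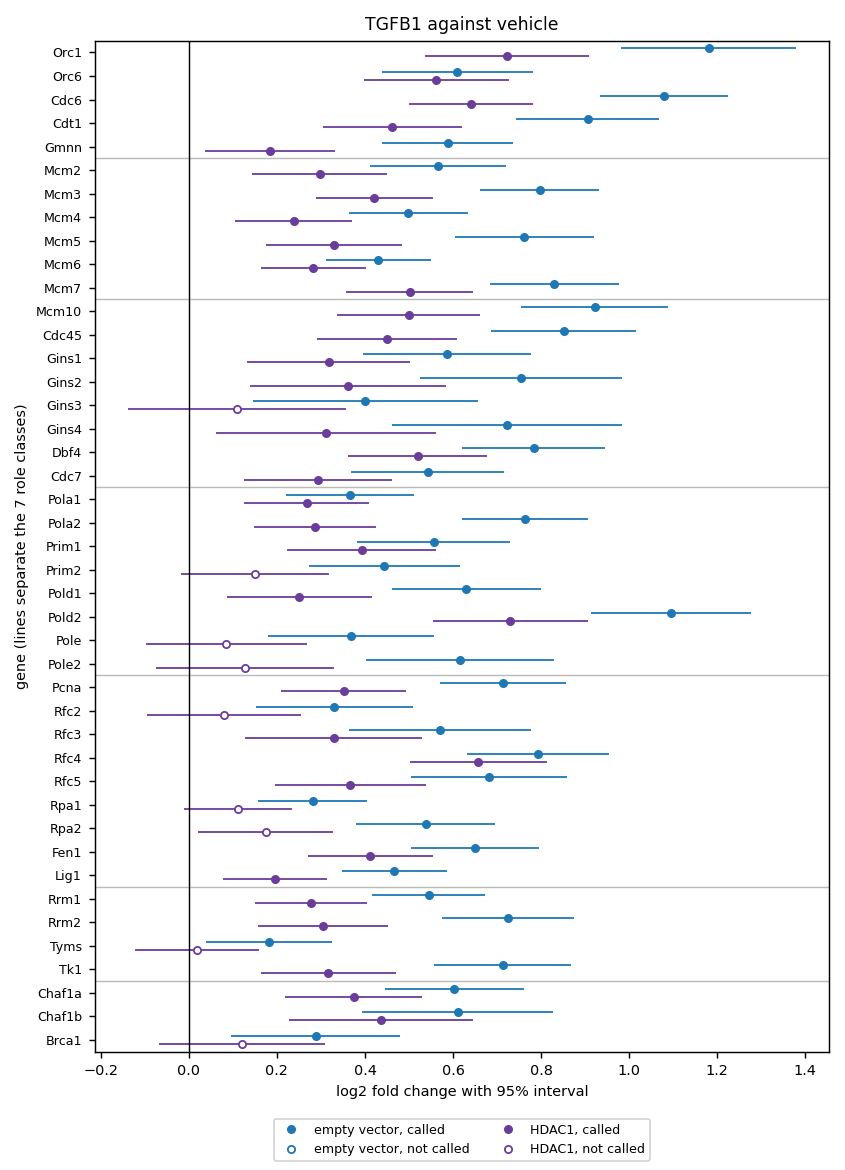
Log2 fold change of TGFB1 against vehicle for each gene, with the empty vector (blue) and with HDAC1 (purple), with 95% intervals from the edgeR fit; filled points were called. With the empty vector 43 of 43 points are filled, from 0.18 to 1.18, and with HDAC1 34 are filled, from 0.18 to 0.73.

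Other genes of the pathway were taken from 2 lists that hold the remaining subunits of the same complexes and further replication factors. Of 32 further factors 30 were tested: 23 rose and 0 fell with HDAC1 in vehicle (median log2 fold change 0.40), where 6.64% of all genes rose. With TGFB1 and the empty vector 26 rose and 0 fell (0.52), where 25.9% of all genes rose. Under HDAC1 with TGFB1 3 rose and 0 fell (0.14), where 2.17% of all genes rose, and for TGFB1 with HDAC1 20 rose and 1 fell (0.32), where 24.9% rose. The genes with the smallest adjusted p in vehicle were Uhrf1, which recognises hemimethylated DNA behind the fork and recruits Dnmt1 (0.54), Dscc1, a subunit of an alternative clamp loader (0.43), Dut, which removes dUTP (0.43), and Wdhd1, which links helicase and polymerase (0.41). With TGFB1 and the empty vector they were Uhrf1 (0.90), the checkpoint factor Clspn (0.70), the nucleotide hydrolase Dctpp1 (1.03) and Tipin (0.70). The 3 that rose with HDAC1 under TGFB1 were Wdhd1 (0.26), Timeless (0.24) and Mms22l (0.29). How far calls of genes in either list depend on single libraries or on the covariate was not examined. The single fall among the further factors was Rnaseh2b, a subunit of ribonuclease H2, for TGFB1 with HDAC1 (-0.27). In the interaction 28 of the 30 factors were below 0 (median -0.20) and 0 were called. Of all genes 48.7% were below 0 and 0.479% were called.

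The other list holds the remaining subunits of the complexes. Their 13 symbols gave 14 rows, because Pole3 is the name of 2 gene identifiers and its reads may be split between them. With HDAC1 in vehicle 2 of 14 rose and 1 fell (median 0.06), where 6.64% of all genes rose and 7.32% fell. With TGFB1 and the empty vector 8 rose and 1 fell (0.24), where 25.9% of all genes rose and 25.0% fell. The corresponding counts were 0 and 1 for HDAC1 with TGFB1 (0.06), where 2.17% of all genes rose and 4.36% fell. They were 7 and 1 for TGFB1 with HDAC1 (0.28), where 24.9% rose and 24.2% fell. In the interaction 5 of 14 rows were below 0 (median 0.06) and 0 were called, where 48.7% of all genes were below 0 and 0.479% were called. The 2 that rose with HDAC1 in vehicle were Rpa3 (0.33, edgeR adjusted p = 0.0084) and 1 row of Pole3 (0.21, edgeR adjusted p = 0.0177). Both also rose with TGFB1 and the empty vector, by 0.68 and 0.51. The origin subunits Orc2, Orc3, Orc4 and Orc5 had log2 fold changes of -0.02, -0.03, 0.14 and 0.15 with HDAC1 in vehicle. The largest clamp loader subunit Rfc1 had 0.05. None of Orc2 to Orc5 and Rfc1 was called, with edgeR adjusted p from 0.186 to 0.915. Orc2 and Orc5 rose with TGFB1, by 0.36 and 0.41 with the empty vector (edgeR adjusted p = 0.00162 and 5.63e-05) and by 0.49 and 0.30 with HDAC1 (edgeR adjusted p = 7.25e-05 and 0.00139), while Orc3, Orc4 and Rfc1 were not called in either. The gene that fell in all 4 comparisons was Pold4, the small accessory subunit of polymerase delta. Pold4 was at 54.5, 54.5 and 50.0 CPM in the empty vector vehicle libraries and at 36.8, 42.0 and 33.3 CPM in the HDAC1 vehicle libraries. Under TGFB1, Pold4 was at 34.7, 33.5 and 38.6 CPM with the empty vector and at 28.1, 28.1 and 26.0 CPM with HDAC1. No HDAC1 library reached an empty vector library of the same treatment. The changes were -0.50 for HDAC1 in vehicle (edgeR adjusted p = 3.14e-04), -0.38 for HDAC1 with TGFB1 (0.0138), -0.57 for TGFB1 with the empty vector (7.38e-06) and -0.45 for TGFB1 with HDAC1 (1.96e-04). Pold1 and Pold2 of the same polymerase were among the genes that rose with HDAC1 in vehicle and with TGFB1.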

How the data were processed

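Polyadenylated RNA of 12 libraries was analysed in 4 groups of 3 taken from the titles, since the treatment field is a numbered series of names and the design text describes every cell as given TGFB1. All tests used the raw counts per gene deposited by the authors. The submitters' processing notes name Trim Galore 0.6.7, Subread 2.0.1 with featureCounts, DESeq2 1.44 and the build mm10, although the identifiers belong to rat Ensembl genes. Aligner, rat build, strand setting and treatment of reads shared by several genes are not given in the sources used here. Each column of the deposited normalized signal is the count column divided by a constant, and this table gave the gene symbols.

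Genes were kept with filterByExpr of edgeR 4.0.16 (R 4.3.3), scaled with TMM and fitted over all 12 libraries with a robust quasi-likelihood model, 1 mean per group (8 residual degrees of freedom). Two-sided tests were adjusted by Benjamini-Hochberg over 14601 genes and called under 0.05. The standard error is the absolute log2 fold change over the square root of F, and intervals are 95%. Levels are CPM after TMM scaling. The steps were also run on simulated counts with changes placed in the HDAC1 vehicle group alone, a simpler setting than these data. The members and lists were chosen with earlier results of these data known. Values in every library are given, per class, for the 2 genes with the smallest and the 1 with the largest adjusted p for HDAC1 in vehicle, for those called for HDAC1 with TGFB1 or the interaction, and for Pcna, Rrm2, Cdt1 and Gmnn. The 2 largest TGFB1 rises and, from the other pathway genes, up to 4 with the smallest adjusted p per comparison are also named. The library values of Pold2 and Pold4, and the naming of Orc2 to Orc5, Rfc1, Rpa3, Pole3 and Rnaseh2b, were chosen after their values were seen. Alternatives were DESeq2 1.42.0 (its size factors, and its test), all genes with a count, only genes averaging at least 1 CPM, fitting the compared pair of groups alone, a replicate block, the heart and brain covariate, and leaving out each library.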

Additional observations from a re-analysis of the deposited data

Results flagged for a closer look

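The HDAC1 effect differed between treatments, by the test of the interaction, in 2 genes. For Cdc6 the effect with TGFB1 minus that in vehicle was -0.44 on the log2 scale (edgeR adjusted p = 0.0418), and for Pola2 it was -0.48 (edgeR adjusted p = 0.0290). In vehicle the HDAC1 and empty vector libraries did not overlap in either gene; with TGFB1 they overlapped for Cdc6 and not for Pola2. With the heart and brain covariate neither was called, at log2 differences of -0.43 for Cdc6 and -0.50 for Pola2. Leaving out any 1 of the HDAC1 TGFB1 replicates also ended both calls, and the DESeq2 test called 11 of the 43 genes. Which genes pass is therefore not stable.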

How the results depend on the processing

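Over the 19 alternatives (18 for the interaction), 39 genes called for HDAC1 in vehicle became 32 to 41 without 1 library, and 32 of the 39 were called in every alternative. The 43 called for TGFB1 with the empty vector became 40 to 43 without 1 library, and the 34 with HDAC1 became 29 to 35. For HDAC1 with TGFB1 the count of 3 became 0 to 6 without 1 library, 7 with the DESeq2 test and 0 with the heart and brain covariate. For the interaction the count of 2 became 0 to 10 without 1 library, 11 with the DESeq2 test, 12 without a filter on low counts and 0 with the covariate; the cause was not tested. The E2F share of 21.1% became 39.5% with the shorter core, which is contained in the longer motif. With the replicate block the counts were 40, 2, 43, 34 and 2 in the order HDAC1 in vehicle, HDAC1 with TGFB1, TGFB1 with the empty vector, TGFB1 with HDAC1 and interaction. Libraries of the same replicate number showed little shared deviation over all genes (r from -0.09 to 0.12 over 18 pairs, over 0.1 in 2). Such values cannot exclude that libraries of the same number were cultured or processed together, so a pairing is unknown.

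Signs changed in values close to 0. Among the genes given by library, Rfc3 for HDAC1 with TGFB1 was at -0.0724 with the covariate and from -0.0664 to 0.14 without 1 library, Pcna from -0.0316 to 0.10, Prim1 from -0.0301 to 0.10 and Gins3 from -0.0421 to 0.0563. For TGFB1 with HDAC1, Tyms was at -0.00697 with a mean CPM of at least 1 and from -0.0610 to 0.0706 without 1 library. For the interaction Orc6 ran from -0.10 to 0.00944. Among the other members 14 signs changed over 8 genes for HDAC1 with TGFB1 (values from -0.0792 to 0.0790) and 1 for TGFB1 with HDAC1 (Pole, -0.0174), none of them called. Depth was at least 133 counts per gene and library.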
